A study of Mus musculus with 16 samples.

Results

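The microRNA miR-378 (mmu-miR-378) was followed across 16 mouse liver samples. It is 1 of 566 mouse miRNAs on the array, chosen by its name in the scanner files and read through its 2 probes on every array. miR-378 lies within the gene Ppargc1b. That gene encodes PGC-1beta, a transcriptional coactivator of genes of mitochondrial oxidation and lipid metabolism. The precursor yields a miRNA from each arm, named miR-378 and miR-378* on this array, and both arms have been reported to restrain mitochondrial metabolism in mice. miR-378 is abundant in muscle and is also found in liver.

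The samples came from male C3H/HeJ mice, an inbred strain prone to liver tumours, and their tumours had been induced with the carcinogen diethylnitrosamine. Mice on phenobarbital, which promotes liver tumours, gave 7 tumours with a Ctnnb1 mutation and 3 control livers. Mice without phenobarbital gave 3 tumours with a Ha-ras mutation and 3 control livers, named untreated controls here. Ctnnb1 codes for beta-catenin, through which Wnt signals reach the genome, and Ha-ras for a GTPase that drives MAP kinase signalling. Which control livers had seen the carcinogen is not in the labels. The series' design text gives 10 or 90 µg of diethylnitrosamine per g at 2 or 6 weeks of age. It goes on with 2 weeks free of treatment and then 28 to 36 weeks on a diet with 0.05% phenobarbital or without it. The labels give 27 weeks of diet, and their protocol instead has phenobarbital in the drinking water for 28 days, so the schedule of each sample is not settled. Nothing in the labels ties samples to animals, so the p-values below measure the spread between these samples only.

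An array detected 83 to 117 mouse miRNAs, and the 75th percentile of the detected probes before scaling lay between 386 and 1248 intensity units. All arrays were scanned on 1 day, from 3 slides. All 7 Ctnnb1 tumours and Ha-ras tumour replicate 1 were on slide 1, and the controls were all on slides 2 and 3, so Ctnnb1 tumours and phenobarbital controls never shared a slide. All 6 hepatocyte markers (miR-122, miR-192, miR-194, miR-148a, miR-101a and miR-101b) were detected on every array. The 4 muscle miRNAs miR-1, miR-133a, miR-133b and miR-206, which mark the other tissue rich in miR-378, were detected on none of the 16 arrays.

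After scaling between arrays, both probes gave their highest miR-378 signals in the untreated controls. Before scaling, Ha-ras tumour replicate 1 read highest, at 85.1 on probe A_54_P2682 and 29.2 on A_54_P2681. The untreated controls then read 60.2 to 76.7 and 22.8 to 28.0. Ctnnb1 tumour 1 (74.1 and 27.9), Ctnnb1 tumour 3 (65.6 and 25.9) and phenobarbital control 5 (64.9 and 23.6) also reached these ranges. The untreated controls thus stood apart only after scaling. Ha-ras tumour replicate 1 also had the highest 75th percentile, 1248. Signals below are background-subtracted spot intensities, averaged over the spots of a probe and scaled between arrays, in arbitrary units. Probe A_54_P2682, with 10 spots on each array, was detected on all 16 arrays, where detected means well above background in more than 0.5 of its spots. It read 74.2, 77.7 and 72.4 in untreated controls 1 to 3, a mean of 74.8 ± 2.74 (SD, n = 3). In phenobarbital controls 4 to 6 it read 47.4, 61.8 and 65.1 (58.1 ± 9.42, n = 3). The phenobarbital controls were all below the untreated controls, and replicate 4 lay well under the other two.

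In Ha-ras tumours 1 to 3 the same probe read 41.8, 40.4 and 58.3 (46.9 ± 9.97, n = 3). In the 7 Ctnnb1 tumours it ranged from 35.5 in replicate 4 to 64.8 in replicate 5, with a median of 47.3 and a mean of 48.2 ± 8.86 (SD, n = 7). Tumours of both kinds covered much the same range, which reached into that of the phenobarbital controls. The highest value outside the untreated controls was 65.1, under their lowest of 72.4.

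The other probe, A_54_P2681, was close to background. It was detected on 2 arrays, untreated control 2 and Ctnnb1 tumour 1, and on 13 arrays it lay under the floor of 24.96 to which low signals were raised before taking logarithms. Before that floor it read 27.1, 26.7 and 27.5 in the untreated controls, the only arrays above the floor. Phenobarbital controls 4 to 6 read 17.7, 22.5 and 19.7, Ha-ras tumours 1 to 3 read 14.3, 14.8 and 18.9, and Ctnnb1 tumours ran from 9.19 over a median of 18.0 to 21.5. The untreated controls again stood above all other arrays, the highest of which read 22.5.

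Spots of this dim probe on an array differed more than those of the brighter one. The coefficient of variation had a median of 22.7% (9.06% to 85.3% over arrays) for A_54_P2681 and of 10.2% (5.18% to 15.6%) for A_54_P2682. Across the 16 arrays the signals of the probes correlated with Pearson's r = 0.92 and Spearman's rho = 0.93. Over deviations from the group means r was 0.82. Both probes were read on the same arrays, so this is a description of how they moved together and not independent evidence. RefSeq (GRCm38.p6) names 3 more genes of this family, Mir378b, Mir378c and Mir378d, and whether the probes tell their products from miR-378 was not tested.

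**Figure D1:**
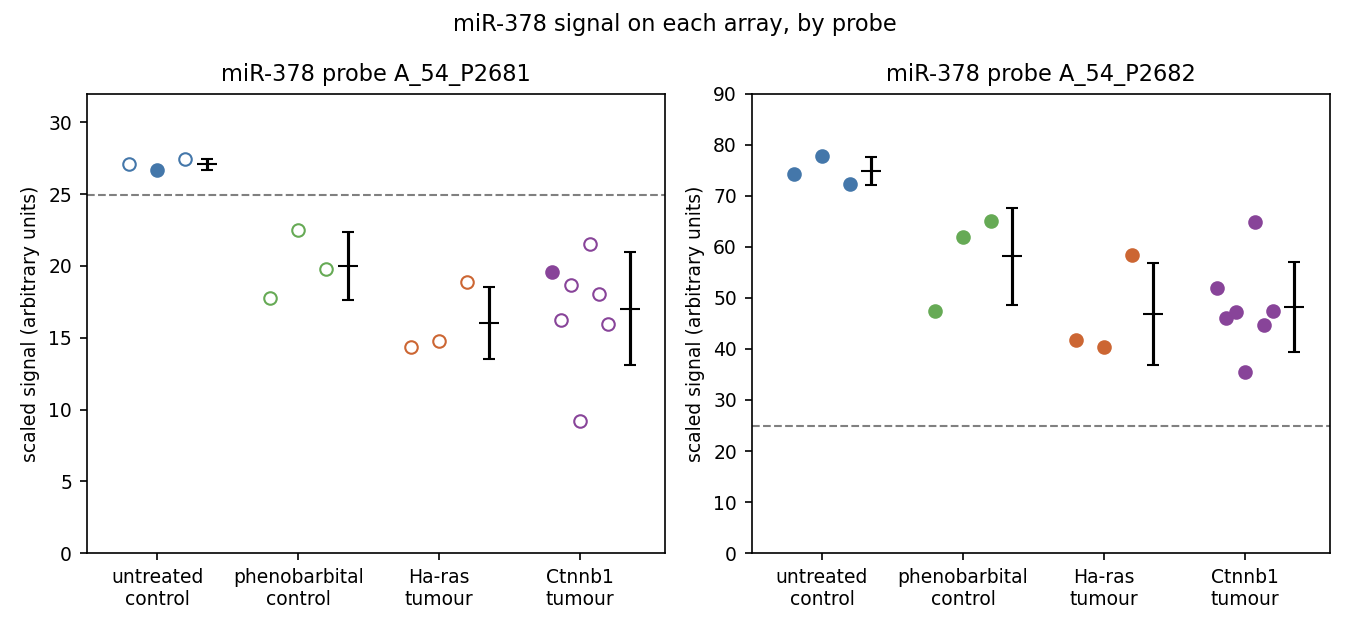
Scaled signal of the miR-378 probes A_54_P2681 (left) and A_54_P2682 (right) on each of the 16 arrays by group, in arbitrary units on linear axes that start at 0. Points are arrays, filled where the probe was detected, the dashes with bars are the group mean ± SD, and the dashed line is the floor of 24.96. On both probes the 3 untreated controls lie above all 13 other arrays.

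The level of miR-378 was taken as the mean of its probes on the log2 scale, after the floor. It was 5.49, 5.51 and 5.48 in untreated controls 1 to 3 (mean 5.49 ± 0.02, SD, n = 3) and 5.10, 5.30 and 5.33 in phenobarbital controls 4 to 6 (5.24 ± 0.12, n = 3). In Ha-ras tumours 1 to 3 it was 5.01, 4.99 and 5.25 (5.09 ± 0.15, n = 3). In Ctnnb1 tumours it ran from 4.90 over a median of 5.10 to 5.33 (5.11 ± 0.13, n = 7). The order of the means was therefore untreated controls, phenobarbital controls, Ctnnb1 tumours and Ha-ras tumours.

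All 13 other arrays lay below the lowest untreated control, a pattern that 4 of the 96 miRNAs tested showed (4.17%). No pair of neighbours in that order differed beyond its spread in limma's test, whose p-values were adjusted by Benjamini-Hochberg over the 96 miRNAs. The adjusted p was 0.559 between both controls, 0.430 between phenobarbital controls and Ctnnb1 tumours and 0.898 between the tumour kinds. The ends of the order differed. Ctnnb1 tumours, the group next to the lowest, were lower than untreated controls too, with a difference of -0.38 (SE 0.10, adjusted p = 0.00975), where 20.8% of the miRNAs tested were called lower. That pair differs in mutation, in tumour against liver and in phenobarbital together. It also differs in slide, since all 7 Ctnnb1 tumours were on slide 1 and the untreated controls on slides 2 and 3, so these cannot be told apart. With slide as a fixed block, which links the slides only through the other groups, the difference was -0.23 (adjusted p = 0.592), and with scaling on miR-122 it was -0.050 (0.745). The deposited table gave -1.14 (0.00877), and the call ended without untreated control replicate 2 (0.0565).

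In Ha-ras-mutated tumours miR-378 was lower than in untreated controls, the liver of the same arm, without phenobarbital. The difference was -0.41 on the log2 scale (SE 0.12, 95% interval -0.65 to -0.16), a fold of 1.32, with an adjusted p of 0.0162 in limma. All 3 tumours lay below all 3 controls, a separation in this direction that 25 of the 96 miRNAs showed (26%). In this comparison 28 of the 96 miRNAs (29.2%) were called, 9 higher (9.38%) and 19 lower (19.8%), miR-378 among the latter. The median difference over all 96 was -0.06.

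The floor shaped the size of this difference. Probe A_54_P2682, which needs no floor, gave -0.69 by itself (SE 0.19, adjusted p = 0.0149), a fold of 1.62. Probe A_54_P2681 gave -0.12 (adjusted p = 0.182) with all 3 tumours raised to the floor, and -0.77 (SE 0.24, adjusted p = 0.0251) with a floor of 1, a setting chosen after seeing the data. The value of -0.41 is the mean of one probe that was measured in both groups and one that was held at the floor in the tumours.

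The direction held under each of the 19 other settings and each of the 16 arrays left out in turn, but the call did not. Leaving out a Ctnnb1 tumour or a phenobarbital control could not move the difference. Nor could dropping the detection filter, fitting only the groups compared, replicate number as a block or the permutation test, so their sign was fixed in advance. Leaving aside the permutation test and the slide taken alone, the call ended under 8 of the other 17 settings. The adjusted p rose to 0.810, with a difference of -0.10, when arrays were scaled over all mouse probes. It ended too without Ha-ras tumour replicate 1 (0.0633), Ha-ras tumour replicate 2 (0.0679) or untreated control replicate 2 (0.0613). An exact two-sided permutation test over the 6 samples gave p = 0.1, the smallest that 3 against 3 allows, so it could not pass. On slide 2, which held untreated control 1 at 5.49 and Ha-ras tumours 2 and 3 at 4.99 and 5.25, the difference was -0.36 (adjusted p = 0.270). There the single control is assumed to vary like the other groups of the slide, which supply the spread, so that p says nothing of stability.

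**Figure D2:**
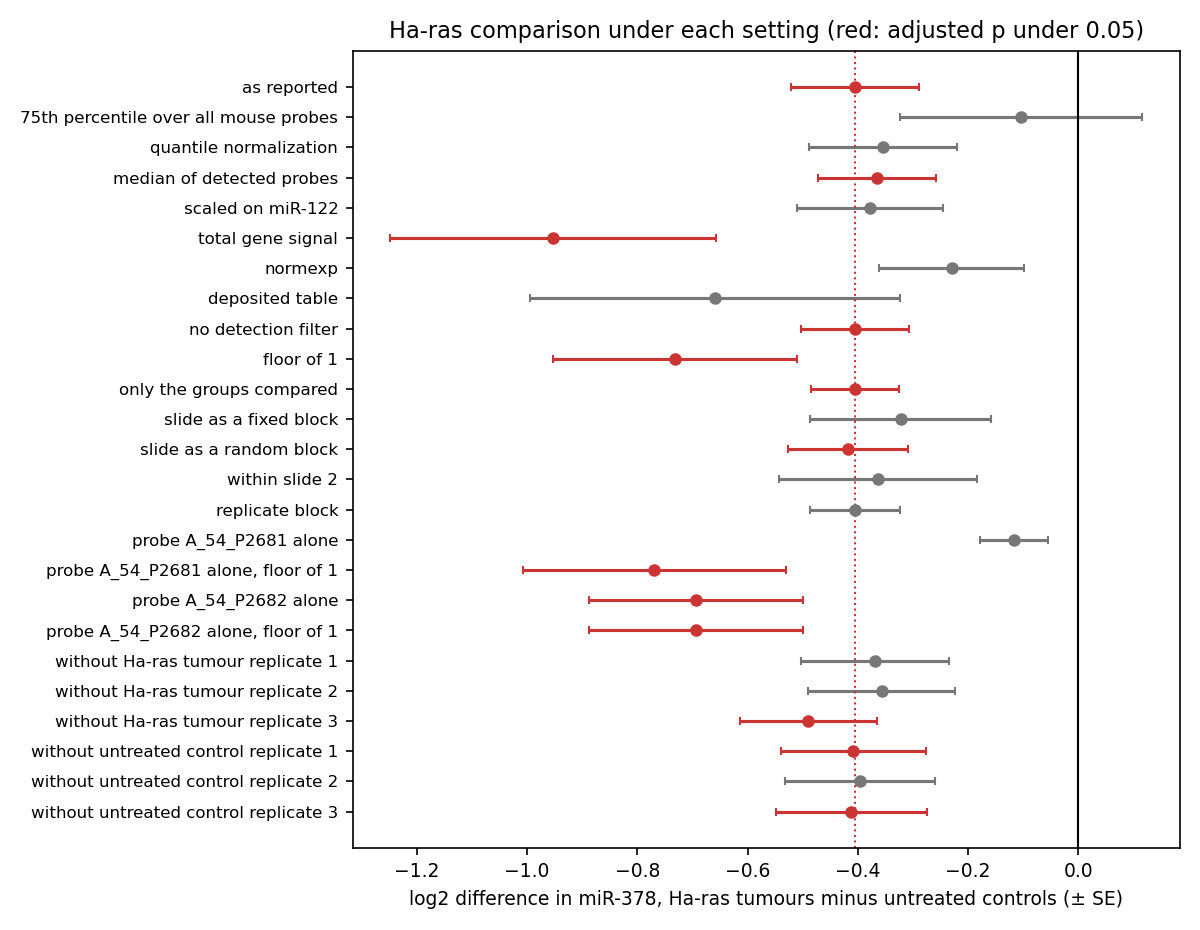
Log2 difference in miR-378, Ha-ras-mutated tumours minus untreated controls, under each way of processing the arrays (rows), with bars of ± 1 SE and red points where limma's adjusted p was under 0.05. All points lie below 0, from -0.95 with the total gene signal to -0.10 with scaling over all mouse probes, and the dotted line marks the reported -0.41.

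In bulk tissue, fewer cells of a type and less RNA per cell cannot be told apart. Beside the Ha-ras difference, the summed level of the hepatocyte markers on the log2 scale was 14.34 to 14.78 in Ha-ras tumours and 14.52 to 14.61 in untreated controls. That of the 7 endothelial and mesenchymal markers was 9.38 to 9.68 in these tumours and 9.67 to 10.00 in these controls, and of the 3 of them tested 2 were called lower, beside 19.8% of all 96 miRNAs. These were miR-143 and miR-199a-3p, the latter with a difference of -1.51 (SE 0.25, adjusted p = 0.000509). The third, miR-126-3p, differed by -0.30 (SE 0.14, adjusted p = 0.141) and was not called. The part of these cells in the miR-378 difference was not tested. The 5 leukocyte markers summed to 7.83 to 9.04 in Ha-ras tumours and 8.24 to 9.06 in untreated controls, and the 3 erythroid markers to 10.57 to 12.44 and 10.38 to 12.34. Signals under the floor enter these sums at the floor. The signals were summed before the logarithm, so the brightest members weigh most. miR-122 alone had levels of 13.97 to 14.47 in Ha-ras tumours and 14.14 to 14.24 in untreated controls. Of the leukocyte markers 2 were detected on none of the 16 arrays, and of the endothelial and mesenchymal markers also 2.

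In Ctnnb1-mutated tumours miR-378 was not called different from phenobarbital controls, the liver of the same arm. The difference was -0.14 (SE 0.10, 95% interval -0.35 to 0.07, adjusted p = 0.430), with 8 of 96 miRNAs called (8.33%, all lower). The groups overlapped: 2 of the phenobarbital controls, at 5.30 and 5.33, lay near the highest tumour at 5.33, and the third at 5.10 lay at the tumours' median. Probe A_54_P2682 alone gave -0.28 (SE 0.16, adjusted p = 0.335). An exact two-sided permutation test over the 10 samples gave p = 0.183, where the smallest possible is 0.00833. The sign turned, to 0.09, when each array was scaled on its own miR-122 level, which itself differed between the groups by -0.42 (SE 0.20, adjusted p = 0.239). The size varied with the processing, from -0.43 (adjusted p = 0.454) with the deposited table to -0.0062 (0.992) with slide as a fixed block, and no setting gave a call.

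Between the tumour kinds miR-378 differed by 0.02, Ctnnb1 minus Ha-ras (SE 0.10, adjusted p = 0.898). The 95% interval of -0.19 to 0.23 covers differences of either sign. The lowest and the highest tumour, at 4.90 and 5.33, were both Ctnnb1 tumours, and all 3 Ha-ras tumours lay between them. Here 29 of 96 miRNAs (30.2%) were called. The tumour kinds also differ in phenobarbital and, but for Ha-ras tumour replicate 1, in slide. Mutation and phenobarbital cannot be told apart here, and slide only through that array. The direction changed with the scaling: the difference was -0.28 with scaling over all mouse probes and 0.33 (adjusted p = 0.0300) with scaling on miR-122, which was lower in Ctnnb1 than in Ha-ras tumours with a difference of -0.59 (SE 0.20, adjusted p = 0.0407).

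Phenobarbital controls had less miR-378 than untreated controls on every array, yet the difference did not pass the test. It was -0.25 (SE 0.12, 95% interval -0.49 to 0.00), with an unadjusted p of 0.0509 and an adjusted p of 0.559. Of the 96 miRNAs 0 were called by limma (0%), with 6 at an unadjusted p under 0.05, and 10 had all phenobarbital controls below all untreated controls (10.4%). The exact permutation test gave p = 0.1, the smallest possible here. The size ran from -0.77 with the total gene signal to -0.046 with normexp. On slide 2 phenobarbital controls 4 and 5 read 5.10 and 5.30 against 5.49 in untreated control 1, and on slide 3 phenobarbital control 6 read 5.33 against 5.51 and 5.48.

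The tumour effect in the phenobarbital arm minus that in the arm without it was 0.27 (SE 0.15, 95% interval -0.06 to 0.59, adjusted p = 0.395), and it ran from 0.053 with normexp to 0.75 with the total gene signal. In this test of the difference itself 2 of 96 miRNAs were called (2.08%), and miR-378 was not among them. A drop passing the threshold against untreated controls and not against phenobarbital controls is therefore not shown to differ between the arms. The levels of the tumours were close, 5.09 and 5.11, and those of the controls were 5.49 and 5.24.

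**Figure D3:**
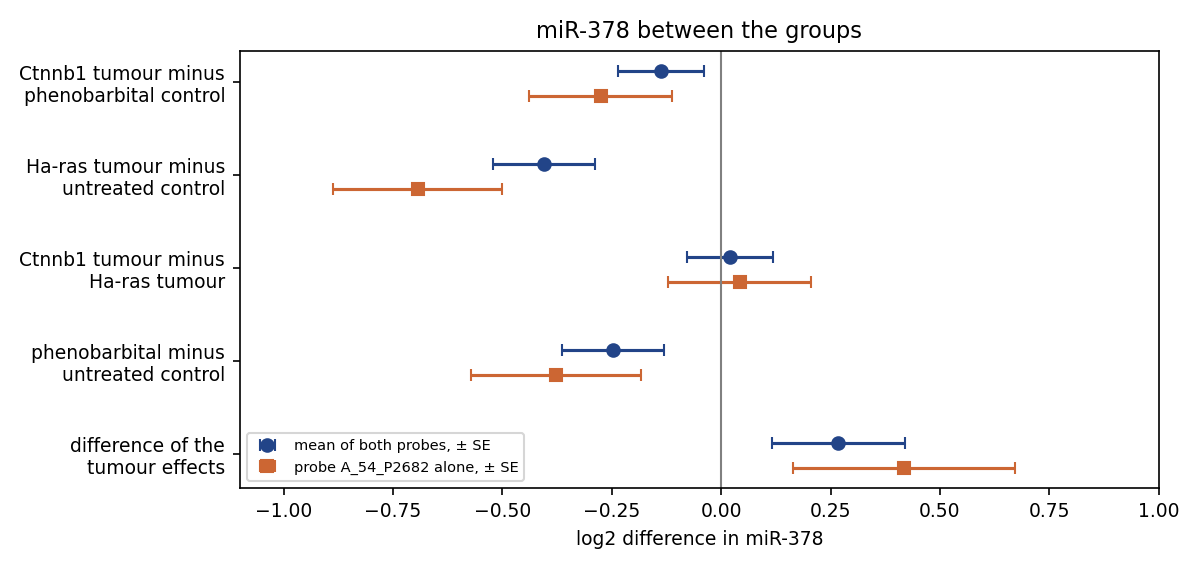
Log2 differences in miR-378 for the 5 comparisons, from the mean of both probes (circles) and from probe A_54_P2682 alone (squares), with bars of ± 1 SE of the limma fit. The Ha-ras difference lies farthest from 0 on both scales, at -0.41 and -0.69, and the difference between the tumour kinds lies closest, at 0.02 and 0.04.

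The authors' deposited table, on a scale that its values show to be log2, lists miR-378 at 6.42, 6.08 and 6.08 in untreated controls 1 to 3. In phenobarbital controls 4 to 6 it lists 5.24, 5.92 and 5.28, and in Ha-ras tumours 1 to 3 it lists 5.54, 5.50 and 5.54. Ctnnb1 tumours lie there between 4.25 in replicate 4 and 5.64 in replicate 1. The untreated controls are again above all 13 other samples, but the Ha-ras difference of -0.66 was not called on these values (adjusted p = 0.222). The untreated controls stood above all other arrays in 5 of the 8 other ways of obtaining the level that use both probes, the exceptions being scaling over all mouse probes (8 of 13 arrays below), scaling on miR-122 (11 of 13) and normexp background correction (9 of 13).

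Sequences of 3 other miRNAs from introns of metabolic genes are shown because these form the comparison group for miR-378, with the seed, bases 2 to 8, in capitals. They are RefSeq mature sequences (GRCm38.p6), written 5′ to 3′. Array names that give no arm were taken as the guide strand.
miR-103: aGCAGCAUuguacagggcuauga
miR-107: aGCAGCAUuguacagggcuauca
miR-33: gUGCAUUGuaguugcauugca
miR-103 and miR-107 share their seed and differ at 1 of 23 positions, so their probes may share signal. They lie in introns of pantothenate kinase genes, which make coenzyme A, and miR-33 lies in an intron of Srebf2, a regulator of cholesterol synthesis.

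With both arms of miR-378 they make a list of 5, of which miR-378* was detected on 0 of 16 arrays and the other 4 were tested. In the Ha-ras comparison miR-378 was the 1 called member, lower, and the list's median was -0.04, beside -0.06 over all miRNAs. miR-33, which limits cholesterol export, differed by -0.02 (SE 0.15, adjusted p = 0.991), and the sign turned under several settings. miR-103 differed by 0.24 (SE 0.19, adjusted p = 0.402) and miR-107 by -0.06 (SE 0.17, adjusted p = 0.876), the latter at 0.51 with scaling over all mouse probes. In each of the other 4 comparisons limma called 0 of the 4, with 0 at an unadjusted p under 0.05.

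A wider list of 18 miRNAs with reported roles in lipid, glucose or energy metabolism had 15 members tested, since miR-378*, miR-370 and miR-335-5p were detected on 0 arrays. In Ha-ras tumours 3 of them were called higher and 3 lower than in untreated controls. That is 40% of the 15, beside 29.2% of all 96 (9.38% higher and 19.8% lower), and the list's median of -0.06 equalled that of all miRNAs. miR-34a, a target of p53 that represses Sirt1, was higher by 1.97 (SE 0.48, adjusted p = 0.00845). Its level was 8.08 to 8.97 on the log2 scale in these tumours and 5.67 to 7.36 in these controls, with no overlap.

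miR-21, which is raised in many tumours, was higher by 1.28 (SE 0.27, adjusted p = 0.00445), at 13.32 to 13.66 against 11.91 to 12.39. miR-27a, linked to lipid and fat cell genes, was higher by 1.12 (SE 0.31, adjusted p = 0.0146). Its close relative miR-27b was lower, with a difference of -0.56 (SE 0.17, adjusted p = 0.0229), at 5.74 to 5.79 against 6.06 to 6.50. miR-143, known from smooth muscle and from insulin signalling in liver, was at the floor on all 3 Ha-ras tumour arrays, not well above background on any. It was at least 1.40-fold lower than the mean of the untreated controls (adjusted p = 0.0146 in limma). That bound sets the control mean of 5.32 against the lowest detected signal of the tumour arrays, taken as 4.83. The controls ran from 4.67 to 5.67, so the lowest control lay under that value and near the floor. The fitted difference of -0.68, with the tumours held at the floor, ran from -5.05 with the deposited table to -0.032 on slide 2, where 1 control was left, and the call of miR-143 ended under 9 of 14 other settings. That of miR-27b ended under 8 of the 14, of miR-34a under 5, of miR-27a under 4 and of miR-21 under 2. Some of these calls rested on single arrays. miR-34a was no longer called without untreated control replicate 2 (adjusted p = 0.0502), nor miR-27a without replicate 1 of the controls (0.0592) or of the tumours (0.0558). The call of miR-143 ended without Ha-ras tumour replicate 1 (0.0527) or untreated control replicates 2 (0.0782) or 3 (0.0878), and that of miR-27b without any of Ha-ras tumours 1 (0.0632) and 2 (0.0658) and untreated controls 2 (0.0832) and 3 (0.0956). miR-27b went to -0.12 when arrays were scaled over all mouse probes. miR-122, the main miRNA of hepatocytes and a regulator of lipid metabolism, differed by 0.06 (SE 0.24, adjusted p = 0.910), with a negative sign under quantile normalization (-0.29).

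Between the tumour kinds 2 of the 15 were called higher in Ctnnb1 tumours and 4 lower, again 40% beside 30.2% of all 96, with a median of -0.02 beside 0.08 over all miRNAs. miR-27b and miR-22 were higher by 0.52 and 0.55 (adjusted p = 0.0188 and 0.0281), and miR-122, miR-21, miR-27a and miR-34a were lower, the last with a difference of -1.79 (SE 0.41, adjusted p = 0.00897). miR-378 was not among them. Tumour kind coincided with phenobarbital and largely with slide. All 6 calls ended with slide as a fixed block and without the detection filter, and 5 of the 6 with replicate number as a block. All 6 ended too when Ha-ras tumour replicate 2 was left out, with adjusted p from 0.0663 for miR-34a to 0.132 for miR-122. Without Ha-ras tumour replicate 1 those of miR-22 (0.151), miR-27a (0.128), miR-27b (0.0547) and miR-122 (0.0515) ended, and without Ctnnb1 tumour replicate 4 that of miR-27a (0.0552). The call of miR-122 ended in 12 of the 16 cases of 1 array left out, at adjusted p up to 0.163, and its difference was -0.037 with quantile normalization. That of miR-22 was 0.0029 with scaling over all mouse probes. Against phenobarbital controls, in phenobarbital controls against untreated ones and in the difference of tumour effects limma called 0 of the 15, with 1, 1 and 4 at an unadjusted p under 0.05.

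The miRNAs whose level ran most and least like that of miR-378 were taken from the 71 others tested that were detected on all 16 arrays. Likeness was Pearson's r over the 16 arrays, which share slides, scaling and the 4 groups, so r is a description without a test. Sequences of those in RefSeq are shown to let families be seen, again with the seed in capitals.
miR-125b-5p: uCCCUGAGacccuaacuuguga
miR-30e: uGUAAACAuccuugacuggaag
let-7b: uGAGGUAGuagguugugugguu
let-7c: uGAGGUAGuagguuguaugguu
miR-15b: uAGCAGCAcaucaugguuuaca
miR-130a: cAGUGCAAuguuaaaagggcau
miR-26b: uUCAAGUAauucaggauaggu
miR-30d was also among the most alike, and its sequence is not shown. let-7b and let-7c share their seed and differ at 1 of 22 positions, so that their probes may share signal and they may not be separate cases. By their names miR-30e and miR-30d are members of the same family, and they may likewise not be separate cases.

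The highest r was that of miR-125b-5p at 0.83, followed by miR-30e at 0.80, miR-30d at 0.78, let-7b at 0.76 and let-7c at 0.75. Across the 71 the median r was 0.18, and 17 exceeded 0.5. Over deviations from the group means, miR-30e and miR-30d kept r at 0.75 and 0.76 and miR-125b-5p had 0.54, while let-7b and let-7c fell to 0.29 and 0.25. The likeness of the miR-30 pair was thus nearly as high within groups as over all arrays, and that of the let-7 pair was not. Among Ctnnb1 tumours the highest miR-30e was 6.71 beside a median of 5.61, and the highest miR-30d 7.09 beside 5.76. Whether a single array carries the r within groups was not tested.

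By group, the level of let-7b was 9.65 ± 0.08 in untreated controls, 9.45 ± 0.10 in phenobarbital controls, 8.97 ± 0.06 in Ha-ras tumours (n = 3 each) and 9.16 ± 0.17 in Ctnnb1 tumours (n = 7). In the Ha-ras comparison it differed by -0.68 (SE 0.12, adjusted p = 0.00100), let-7c by -0.43 (adjusted p = 0.0146) and miR-125b-5p by -0.44 (adjusted p = 0.0229). miR-30e at -0.60 (SE 0.27, adjusted p = 0.119) and miR-30d at -0.50 (SE 0.33, adjusted p = 0.322) did not pass, but miR-30e did without Ctnnb1 tumour replicate 5 (0.0175). The call of let-7c ended without untreated control replicate 3 (0.0511), and let-7c (0.14) and miR-30d (0.076) changed sign with scaling over all mouse probes. That of miR-125b-5p ended without Ha-ras tumours 1 (0.0632) or 2 (0.0666) or untreated controls 2 (0.0846) or 3 (0.0881). Ctnnb1 tumours spread widely in miR-30d, from 5.63 to 7.09.

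The lowest r were those of miR-15b at -0.71, miR-130a at -0.68 and miR-26b at -0.47. Within groups they were -0.46, -0.07 and -0.70. miR-130a was lowest in untreated controls (8.49 ± 0.06, n = 3) and highest in Ha-ras tumours (9.18 ± 0.09, n = 3), a difference of 0.69 (SE 0.15, adjusted p = 0.00537). These negative relations depended on the scaling: all 3 were positive, at 0.05, 0.37 and 0.42, when arrays were scaled over all mouse probes. The 5 highest r stayed at 0.43 or more under the alternatives run.

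**Figure D4:**
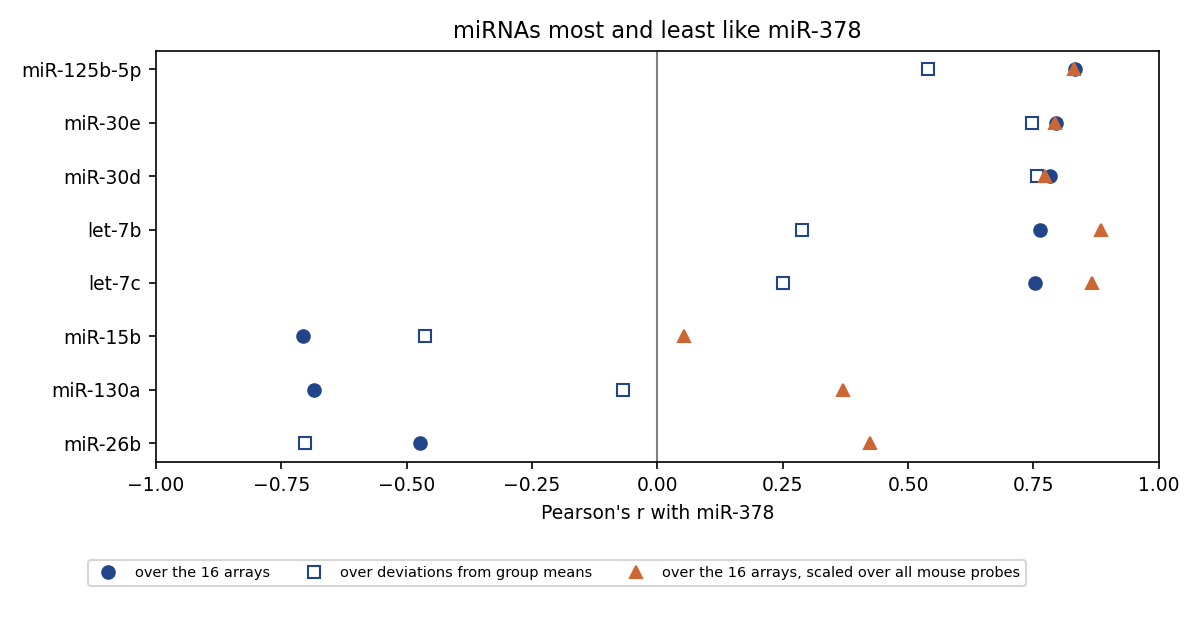
Pearson's r of 8 miRNAs with miR-378 over the 16 arrays (circles), over deviations from group means (open squares) and over the 16 arrays scaled over all mouse probes (triangles). The 5 upper miRNAs lie to the right of 0 on all 3 measures, while the 3 lower ones cross from negative to positive under the other scaling.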

How the data were processed

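Each sample's total RNA (25 ng), labelled with Cy3, was put on 1 one-colour Agilent miRNA array, per the labels' protocols. The spot intensity values came from Feature Extraction 10.7.3.1, per the file headers, and the deposited intensity used is background-subtracted and not normalised between arrays. The deposited table holds log2 values, a scale read from the values. R 2.14.1 is named in the submitters' processing notes. How the table was normalised is not stated in the sources used here.

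Of 12493 spots per array 11540 were no controls and 0 were saturated. Outlier spots were dropped and a probe's spots averaged. For scaling, 117 mouse probes that were detected on each of the 16 arrays gave the 75th percentile of an array, and all arrays were brought to 1 common value of it. Low signals were then set to 24.96 (log2 4.64), a floor equal to the median of the arrays' lowest detected signals. The mean of the log2 probe values is a miRNA's level. A miRNA was tested if all arrays of some group detected it, which 96 did. limma 3.58.1 in R 4.3.3 fitted 4 group means (lmFit and eBayes), with Benjamini-Hochberg adjustment and a threshold of 0.05. The fit was tested on simulated data. The number of arrays limits the precision.

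Named were miR-378, the 5 and 3 miRNAs most and least correlated with it, up to 6 called members of 2 metabolic lists per comparison, and miR-378*, miR-33, miR-103, miR-107 and miR-122. The miRNA and the lists were chosen with earlier results of these data known. miR-199a-3p was named after its values were seen. The labels do not say whether replicate numbers pair the samples, and the main fit did not pair them. Other scalings, signals, floors, filters, blocks and single probes were tried. Messenger RNA, and so Ppargc1b itself, was not analysed here.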

Additional observations from a re-analysis of the deposited data

Results flagged for a closer look

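The highest level of miR-22 in the 7 Ctnnb1 tumours, 12.38 on the log2 scale, stood apart from the others by Dixon's criterion (range 11.52 to 12.38). It was 1 of 32 highest or lowest values examined in 16 groups, and chance marks about 1 in 20 groups. No extreme value of miR-378 itself stood apart in this way.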

How the results depend on the processing

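For miR-378, the Ha-ras difference kept its sign in all 35 alternatives, but its call (adjusted p = 0.0162) ended with scaling over all mouse probes (-0.10), quantile normalization (-0.35), scaling on miR-122 (-0.38), normexp (-0.23), the deposited table (-0.66), slide as a fixed block (-0.32), probe A_54_P2681 alone (-0.12) and the replicate block (-0.41, adjusted p = 0.0715). Slide 2 alone, with 1 control array (-0.36), and the exact permutation test (-0.41, p = 0.1, the smallest possible) did not pass either, which says nothing of stability. With one array left out it ranged from -0.49 to -0.36. The cause was not tested.

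The Ctnnb1 difference from untreated controls kept its sign, with alternatives chosen after seeing the data. Its call ended with all mouse probes (-0.39), miR-122 (-0.050), normexp (-0.22), the fixed slide block (-0.23), the replicate block (-0.37, adjusted p = 0.281) and probe A_54_P2681 alone (-0.12), and with one array left out it ranged from -0.42 to -0.35. The Ctnnb1 difference from phenobarbital controls turned to 0.087 with scaling on miR-122. The difference between tumour kinds turned to -0.28 (all mouse probes), -0.10 (quantile), -0.018 (total gene signal) and -0.48 (deposited table), rose to 0.33 and was called with miR-122 scaling (adjusted p = 0.0300), and ranged from -0.027 to 0.11 with one array left out, turning to -0.016, -0.015 and -0.027 without Ctnnb1 tumour 5, Ha-ras tumour 1 or Ha-ras tumour 2. The replicate block changed no other miR-378 call: it gave -0.15 (adjusted p = 0.507) and 0.03 (adjusted p = 0.933) in these comparisons. Deviations of same-numbered samples correlated at -0.77 to 0.58 (9 pairs), but groups so small cannot settle pairing. Phenobarbital controls minus untreated controls (-0.77 to -0.05) and the difference of tumour effects (0.05 to 0.75) kept sign and side throughout. Probe A_54_P2681 alone gave none where both groups were at the floor.

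In the Ha-ras comparison miR-33 turned to 0.19 (all mouse probes), 0.057 (quantile), 0.23 (deposited table), 0.025 (floor of 1), 0.078 (fixed slide block) and 0.081 (slide 2), and ranged from -0.098 to 0.086 with one array left out. miR-107 turned to 0.51 and 0.038 (all mouse probes, deposited table), and ranged from -0.22 to 0.069 with one array left out. miR-122 turned to -0.29 and -0.054 (quantile, total gene signal) and ranged from -0.044 to 0.21 with one array left out. let-7c turned to 0.14 and miR-30d to 0.076 (all mouse probes), and miR-30d to 0.085 on slide 2. The correlations of miR-15b, miR-130a and miR-26b turned to 0.054, 0.37 and 0.42 (all mouse probes) and 0.37, 0.25 and 0.44 (miR-122).

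Of the 10 other named miRNAs called in the Ha-ras comparison, 6 lost the call with all mouse probes, the deposited table, the fixed slide block or the replicate block and 8 with miR-122; of these only let-7c turned sign, with all mouse probes. The Ha-ras count of 28 calls (9 higher, 19 lower) became 12 (12 and 0) with all mouse probes, 23 (12 and 11) with quantile, 10 (2 and 8) with miR-122, 18 with normexp or no filter, 9 with the deposited table or slide block, 16 with the replicate block, and 13 to 33 with one array left out (13 without Ha-ras tumour 1 or untreated control 2, 18 without untreated control 3). The count of 29 between tumour kinds (16 higher, 13 lower) became 22 with all mouse probes (2 and 20) or the deposited table (12 and 10), 51 (48 and 3) with miR-122, 32 (22 and 10) with the median, 15 with normexp, 6 with no filter, 13 with only these groups, 8 with the slide block, 3 with the replicate block, and 5 to 29 with one array left out (11 without Ha-ras tumour 1, 5 without Ha-ras tumour 2). Single slides leave an arm of 1 array, whose spread the other arrays must supply, and gave 2 Ha-ras calls (slide 2) and 5 between tumour kinds (slide 1). The Ctnnb1 count of 8 ran from 0 (all mouse probes, miR-122, replicate block) to 20 (random slide block), with 18 without Ctnnb1 tumour 1 and 5 without phenobarbital control 6, that of phenobarbital from 0 to 6 (floor of 1), and that of the difference of effects from 1 to 4. All-probe scaling moved the Ha-ras median of all miRNAs from -0.06 to 0.28, and miR-378 lay 0.35 and 0.39 below these medians.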
